A study of Rattus norvegicus with 24 samples.

Results

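Sodium, calcium, HCN and TRP channels are cation channels of the cell membrane, and the genes described here encode their subunits. The members were all probes of the array whose annotated gene symbol starts with Cacna, Cacnb, Cacng, Scn, Hcn and a digit, or Trpc, Trpm or Trpv and a digit. This rule, which uses names and no measured value, gave 51 probes for 51 genes, out of 13793 probes carrying 1 gene symbol and 22523 probes in all. Of these, 23 encode calcium channel subunits, 14 sodium channel subunits, 10 TRP channels and 2 HCN channels. The other 2 matched by name only: Scnm1 encodes a splicing factor that was named as a modifier of sodium channel phenotypes in mice, and Trpc4ap encodes an adaptor protein that binds TRPC4. Family members that the rule did not return were not analysed here.

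The series profiled cortex of male Wistar rats on 24 arrays of 2 Illumina RatRef-12 beadchips, with 4 arrays in each of 6 groups. Sham animals underwent surgery without occlusion, in vehicle animals a middle cerebral artery was permanently occluded and 80% dimethyl sulfoxide (DMSO) was injected into the cerebral ventricle, and treatment animals received the occlusion and 30 mM of the Aurora kinase inhibitor ZM447439 in 80% DMSO. Each of these 3 conditions was collected at 8 h and at 24 h, in separate groups. All animals were anesthetized with ketamine and xylazine. No DMSO injection is given for the sham group, the age of the animals is not given, and the sources name the left artery but label the tissue as right cortex. Whether every array stands for its own animal is not stated.

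Voltage-gated sodium channels carry the rising phase of the action potential, and their large alpha subunit forms the pore while small beta subunits adjust gating and adhesion. Voltage-gated calcium channels are built around an alpha1 pore subunit, with a cytoplasmic beta subunit and an extracellular alpha2delta subunit that raise its surface expression. They couple depolarization to transmitter release, dendritic calcium entry and gene expression, and calcium entry is one of the known routes of injury in ischemic brain tissue. Several proteins of the gamma family, despite their name, are auxiliary subunits of AMPA-type glutamate receptors (transmembrane AMPA receptor regulatory proteins, TARPs). HCN channels open on hyperpolarization and pace rhythmic firing, and TRP channels respond to heat, ligands, lipids or mechanical stimuli.

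A level below means the deposited intensity of a probe divided by the median probe of its array, so that 1 is the middle probe. The 12 columns of a time point held the same levels. Among the 51 members no column departed from its time point's profile by more than 2.18e-07 (8 h) or 2.13e-07 (24 h) in log2 units. Sham, vehicle and treatment could therefore not be compared for any channel gene, and each time point counted as 1 profile. The arrays behind each profile are not named in the labels or files. Array medians ran from 65.3 to 115, and on the deposited scale a member differed between arrays of a time point by that factor alone. All differences below are the log2 level in the 24 h profile minus that in the 8 h profile. They have no replicate error and no p-value, and time, occlusion, DMSO and inhibitor are not separated in them. The number of arrays adds no precision to them. In tissue RNA, fewer cells of a type and less RNA per cell cannot be told apart.

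The 2 members that differed most show this structure. Cacng2 encodes stargazin (TARP gamma-2), which carries AMPA receptors to the synapse. Its deposited intensity ran from 2043 to 2817 over the 12 arrays at 8 h, with a median of 2491, and from 1357 to 2030 at 24 h, with a median of 1554. The arrays of the 2 times did not overlap. Its level was 31.3 in every sham, vehicle and treatment array at 8 h and 17.7 in every array at 24 h. Cacna1g encodes Cav3.1, a low-voltage-activated T-type pore subunit that supports burst firing. Its intensity ran from 487 to 671 at 8 h (median 593) and from 295 to 441 at 24 h (median 337), again without overlap. Its level was 7.45 at 8 h and 3.83 at 24 h. For comparison, the intensity of Scn3b, the sodium channel beta3 subunit, ran from 3158 to 4356 at 8 h and from 3751 to 5611 at 24 h, and these ranges overlapped. Its level was 48.3 at 8 h and 48.8 at 24 h. Overlap or its lack in these intensities comes from the array factors and the 2 profiles, and is no replicate check.

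**Figure D1:**
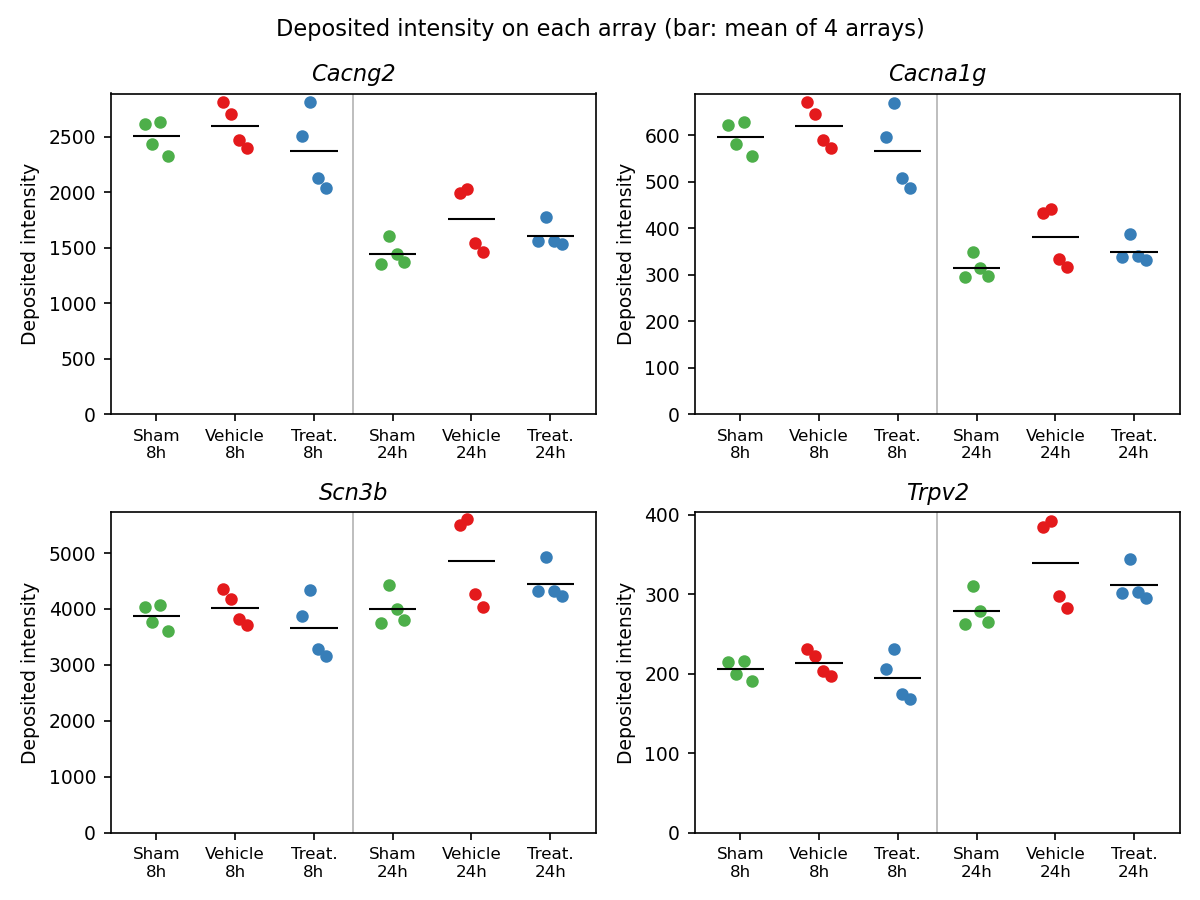
Deposited intensity (linear scale from 0) of 4 channel genes on each of the 24 arrays, by group and time, with bars at the mean of 4 arrays. Within a time point the 12 points keep the same pattern in every panel, because the columns differ by 1 factor per array; Cacng2 and Cacna1g stand lower at 24 h, and Trpv2 stands higher.

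A level of at least 1.5 in both profiles was reached by 19 of the 51 members (37.3%), beside 34.7% of all probes, and the other 32 members had at least 1 level below it, with levels from 0.681 to 1.66. The middle of the array is dim: at 8 h the 25th percentile of all probes lay at 0.812 and the 1st percentile at 0.693. No detection call was used, so a level near 1 does not show whether the transcript was present. Levels of probes for different genes do not rank those genes by RNA amount. The members nearest the limit were Cacng8 inside it, at 1.78 and 1.59, and Scn8a outside it, at 1.66 and 1.47. Log2 differences are given for the 19 members above the limit, and levels for the rest.

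**Figure D2:**
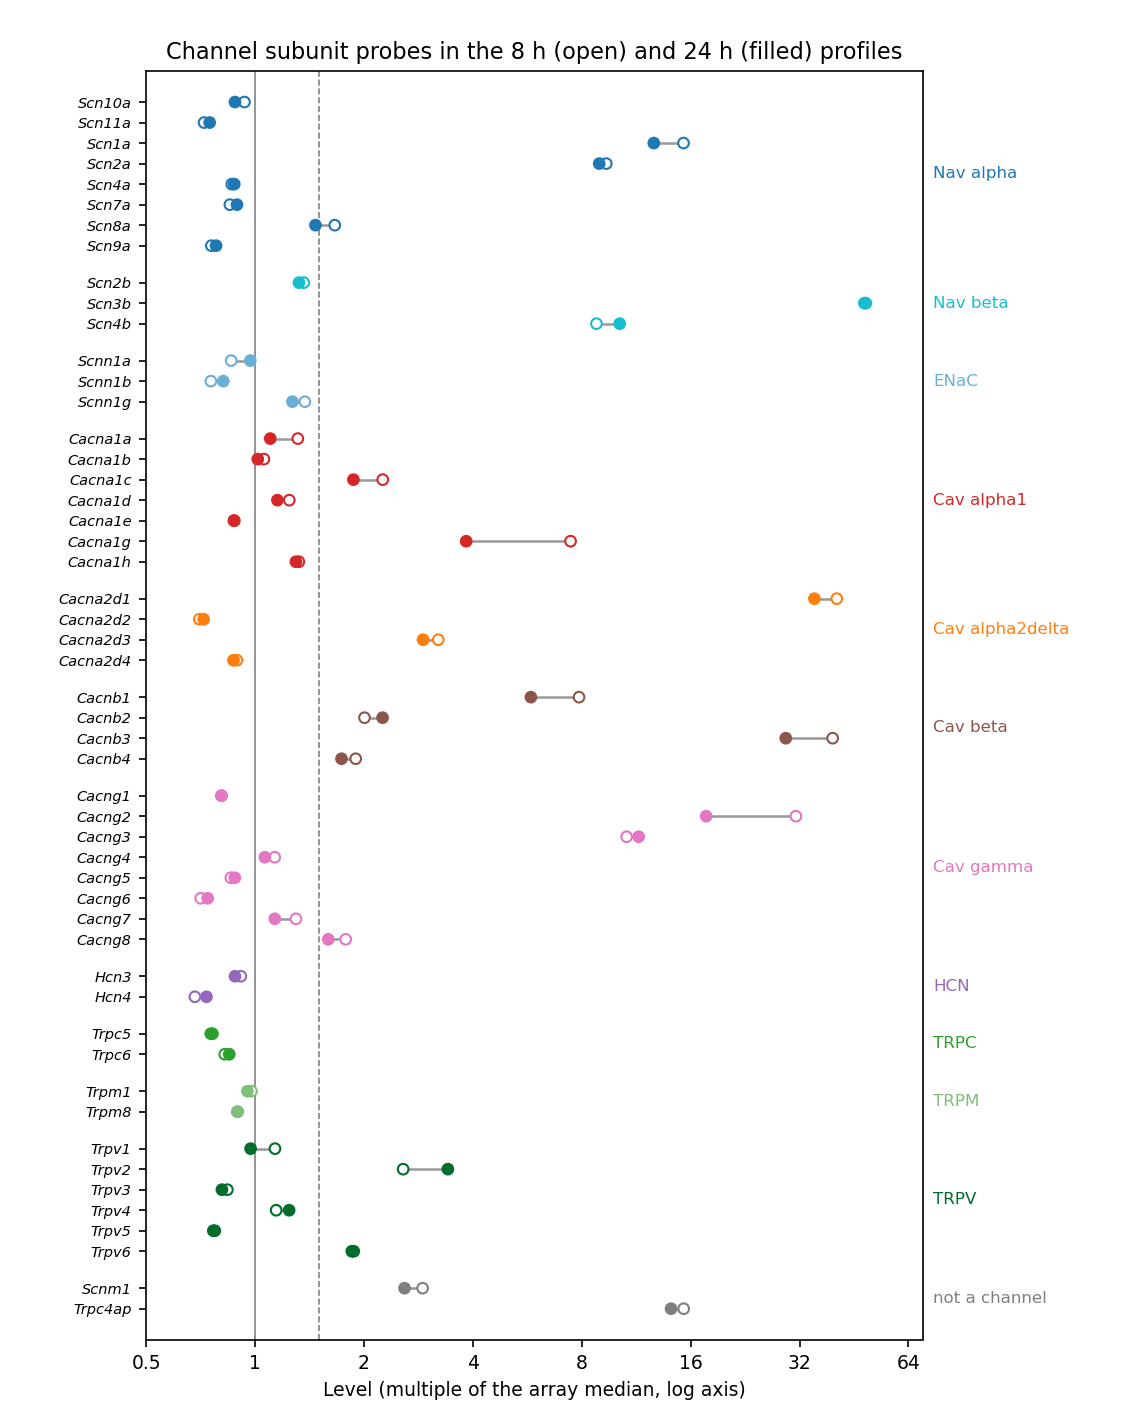
Level of each of the 51 probes in the 8 h profile (open circles) and the 24 h profile (filled circles), as a multiple of the array median on a log axis, grouped by subfamily. The solid line marks 1 and the dashed line 1.5; 32 members have at least 1 level left of the dashed line, both HCN genes among them, and the longest leftward shifts from 8 h to 24 h are those of Cacna1g and Cacng2.

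Over the whole family 34 members were lower at 24 h and 17 higher. The share lower was 66.7%, beside 53.1% of all 22523 probes, of which 46.9% were higher. When the 75th percentile replaced the median as the scale, 22 were lower and 29 higher, so the balance of the dim members depended on the scaling. That scale moved all probes up alike, their median from -0.01 to 0.05, and 32.7% to 33.5% of them were lower on it. This range comes from the ranks of Cacna1b and Hcn3, the members on either side of 0 on that scale. The median difference over the 51 members was -0.04, beside -0.01 over all probes. Among the 19 members above the limit 14 were lower (73.7%), beside 64.8% of the 7822 probes above it, and their median was -0.14 beside -0.08 for those probes. This count was 12 to 14 under the other scalings. A difference of at least 1.5-fold, counted as a size and not as a test, was reached by 2 members, Cacna1g and Cacng2, both lower at 24 h (3.92%, beside 0.497% of all probes and 1.29% of probes above the limit). No member was at least 1.5-fold higher, as 0.617% of all probes and 1.39% of probes above the limit were. Over all probes the split of 139 higher and 112 lower became 195 and 78 by cyclic loess, 174 and 87 by quantile normalization, and 184 and 88 on the 75th percentile scale.

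**Figure D3:**
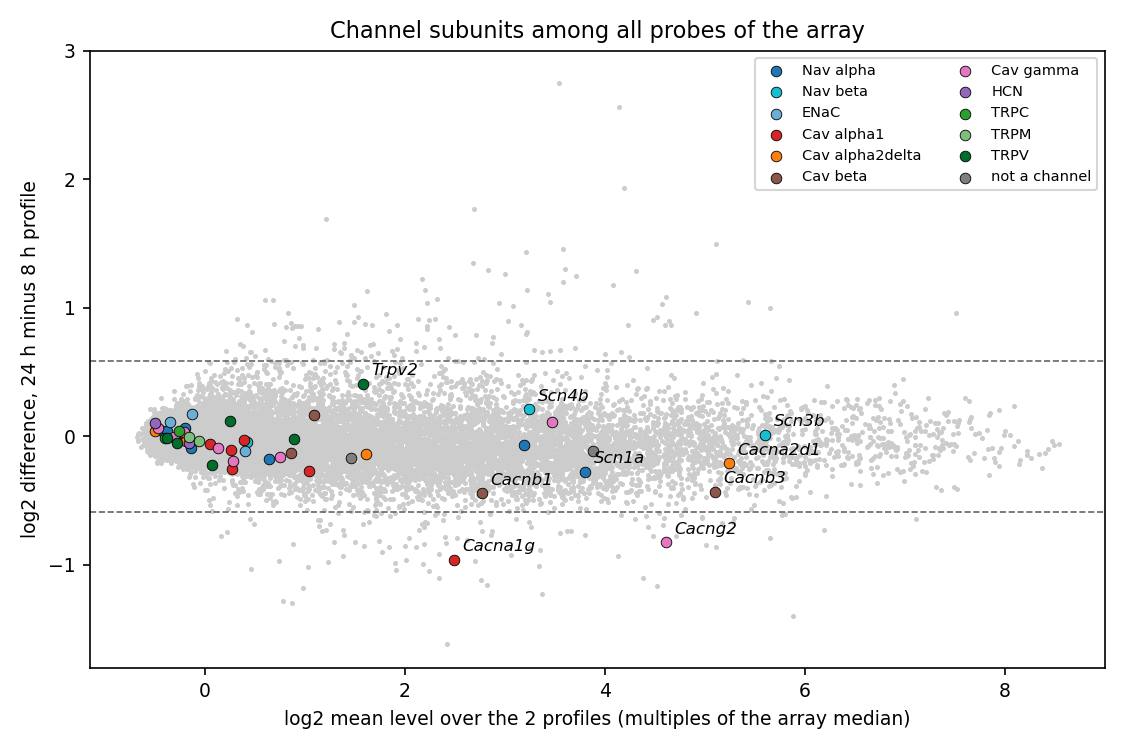
Log2 difference (24 h minus 8 h profile) of each probe against the log2 of its mean level over both profiles, with all 22523 probes in grey and the 51 members coloured by subfamily. The dashed lines mark 1.5-fold; Cacna1g and Cacng2 lie below the lower line, no member lies above the upper one, and the dim members crowd at the left near 0.

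Calcium channel pore subunits were all lower at 24 h by the sign of the difference, 7 of 7, although 5 of them were dim. Over all probes 53.1% were lower, and 64.8% of probes above the limit. Cacna1g differed by -0.96, a level 1.94-fold lower at 24 h, and 23 of all 22523 probes (0.102%) were at least as low. The second T-type gene, Cacna1h (Cav3.2), stood at 1.32 and 1.30, below the limit. Cacna1c, which encodes the L-type pore Cav1.2 that links depolarization to nuclear signalling, stood at 2.25 and 1.87, a difference of -0.27. The other L-type gene, Cacna1d (Cav1.3), was at 1.24 and 1.15. The pores of presynaptic release channels were dim: Cacna1a (P/Q-type) stood at 1.31 and 1.10, Cacna1b (N-type) at 1.06 and 1.02, and Cacna1e (R-type) at 0.876 and 0.873. Of the 7, Cacna1g alone reached 1.5-fold. On the 75th percentile scale 5 of the 7 were lower and 2 higher, beside 32.7% to 33.5% of all probes lower. Under the other 3 scalings all 7 were lower.

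The beta subunits, which bind the alpha1 pore inside the cell, were all above the limit. Cacnb1 stood at 7.86 and 5.79 and differed by -0.44. Cacnb3 stood at 39.5 and 29.3 and differed by -0.43. Neither reached 1.5-fold, and 1.36% and 1.55% of all probes were at least as low. Cacnb4, the gene mutated in the ataxic lethargic mouse, stood at 1.90 and 1.73 (-0.13), whereas Cacnb2, a partner of cardiac and neuronal L-type channels, stood at 2.01 and 2.25 (0.17). The 4 beta genes therefore split 3 lower to 1 higher, where 64.8% of probes above the limit were lower. Each of the 4 kept its sign under the 4 other scalings.

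The alpha2delta subunits are glycoproteins that promote trafficking of the channel, and the products of Cacna2d1 and Cacna2d2 bind gabapentin. Cacna2d1 stood at 40.6 and 35.2 (-0.21) and Cacna2d3 at 3.21 and 2.91 (-0.14). Cacna2d2 was at 0.701 and 0.721 and Cacna2d4, known mainly from retina, at 0.891 and 0.871. The latter 2 genes were below the 1.5 limit in both profiles.

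Within the gamma family the TARP genes diverged. Cacng2 differed by -0.82, a level 1.77-fold lower at 24 h, and 40 of all probes (0.178%) were at least as low. Cacng3 (TARP gamma-3), a close relative, stood at 10.6 and 11.5, a difference of 0.11. Cacng8 (TARP gamma-8) differed by -0.16, and Cacng4, Cacng5 and Cacng7 were dim, with levels from 0.857 to 1.30. Cacng1, the gamma subunit of the skeletal muscle channel, stood at 0.808 and 0.807, and Cacng6 at 0.707 and 0.739. The signs of Cacng2 and Cacng3 were the same under all 4 other scalings, with ranges of -0.85 to -0.75 and 0.12 to 0.20.

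The upstream sequences of Cacng2 and Cacng3 are shown because these related genes lay on opposite sides of 0. Each runs from 250 bases before to 50 bases after the annotated start (RefSeq, GRCr8), Cacng2 at chr7:111577708-111578007 on the minus strand and Cacng3 at chr1:186632312-186632611 on the plus strand. Capitals mark matches to the TATA box (TATAAA) or the GC box (GGGCGG), on either strand.
Cacng2: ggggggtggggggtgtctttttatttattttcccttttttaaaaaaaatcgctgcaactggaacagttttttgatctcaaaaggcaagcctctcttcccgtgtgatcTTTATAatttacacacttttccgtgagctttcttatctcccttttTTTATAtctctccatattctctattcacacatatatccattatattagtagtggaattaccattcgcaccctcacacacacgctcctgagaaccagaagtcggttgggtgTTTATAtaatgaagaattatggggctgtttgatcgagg
Cacng3: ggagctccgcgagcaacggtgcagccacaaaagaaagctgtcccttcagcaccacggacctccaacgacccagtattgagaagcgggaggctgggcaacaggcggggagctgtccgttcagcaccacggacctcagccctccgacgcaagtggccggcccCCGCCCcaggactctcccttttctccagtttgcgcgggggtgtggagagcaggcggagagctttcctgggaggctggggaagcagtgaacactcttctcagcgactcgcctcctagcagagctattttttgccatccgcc
The Cacng2 window held 3 TATA box matches, all on the opposite strand, no GC box and 39.0% G and C. The Cacng3 window held 1 GC box match on the opposite strand, no TATA box and 63.0% G and C, where the median of all promoters was 52.3%. Of 27457 promoters of this length, 14.3% held the TATA box letters and 34.9% the GC box letters. Promoters were matched for 37 of the 51 members, of which 2 held the TATA box and 16 (43.2%) the GC box. The cAMP response element (TGACGTCA) was in 0 of the 37 and in 1.91% of all. These matches describe letters in a window and show no binding.

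Sodium channel probes differed little between the profiles, but 10 of the 14 were dim. The median of the 14 probes was 0.02, with 6 lower and 8 higher, and none reached 1.5-fold. The 4 above the limit had a median of -0.03, with 2 lower and 2 higher. Of the brain alpha subunits, Scn1a (Nav1.1), which fast-spiking interneurons depend on, stood at 15.3 and 12.7 (-0.27), and Scn2a (Nav1.2), a channel of excitatory axons, at 9.35 and 8.94 (-0.07). The sign of Scn2a turned positive under 2 of the 4 other scalings, up to 0.03. Scn8a (Nav1.6), the channel of mature axon initial segments and nodes, was just below the limit. All 10 brain pore subunits of the sodium and calcium families had a negative difference (median -0.14), as 53.1% of all probes did. However, 6 of the 10 were dim, and on the 75th percentile scale 8 were lower and 2 higher, beside 32.7% to 33.5% of all probes lower.

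Of the 3 beta subunits of the sodium channel, Scn4b was higher at 24 h, at 8.78 and 10.2 (0.21), which 5.15% of all probes matched or exceeded. Scn3b differed by 0.01, and Scn2b was dim, at 1.36 and 1.32. The Scn4b product supports resurgent sodium current, and in rodents the gene is strongly expressed in striatum. Striatum markers were higher in 7 of 8 measured genes at 24 h, beside 46.9% of all probes. Their summed level was 95.6 at 8 h and 136 at 24 h, and none was near the bottom of the array (lowest level 2.23). Their part in the Scn4b difference was not tested.

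Sodium channel genes of muscle, sensory neurons and epithelia were dim in both profiles, 7 of 7. The muscle gene Scn4a stood at 0.862 and 0.875. Among the sensory neuron genes, Scn9a was at 0.757 and 0.780, Scn10a at 0.935 and 0.879, and Scn11a at 0.723 and 0.749. The epithelial channel genes Scnn1a, Scnn1b and Scnn1g had levels from 0.755 to 1.37. Scn7a, the sodium-sensing channel of glia in circumventricular organs, stood at 0.852 and 0.891.

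Both HCN genes were dim. Hcn3 stood at 0.913 and 0.880 and Hcn4, a pacemaker channel of the heart and thalamus, at 0.681 and 0.734. Both levels of Hcn4 lay below the 25th percentile of all probes, which was 0.812 at 8 h and 0.816 at 24 h.

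Of the 10 TRP genes, 2 were above the limit. Trpv2 encodes a cation channel found in macrophages and some neurons, and its intensity ran from 168 to 231 at 8 h (median 204) and from 262 to 392 at 24 h (median 300). The arrays of the 2 times did not overlap, which follows from the array factors and the 2 profiles and is no replicate check. The level of Trpv2 was 2.57 and 3.41, a difference of 0.41 or 1.33-fold, which 1.53% of all probes matched or exceeded. This difference ranged from 0.46 to 0.54 under the 4 other scalings. Markers of microglia and macrophages were higher in 7 of 8 measured genes at 24 h, 3 of them at least 1.5-fold. Over all probes 46.9% were higher and 0.617% at least 1.5-fold higher. The summed level of these markers was 49.3 at 8 h and 86.5 at 24 h, with Aif1, C1qb and Tyrobp past 1.5-fold and Ptprc at 0.912 and 1.05. Their part in the Trpv2 difference was not tested.

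The other TRP genes gave little signal. Trpv6, an epithelial calcium channel, stood at 1.87 and 1.85 (-0.02), and its sign turned under 3 of the 4 other scalings. Trpv4, an osmosensitive channel of astrocytes and endothelium, was at 1.14 and 1.24, and the heat- and capsaicin-gated Trpv1 at 1.13 and 0.972. Trpv3, Trpv5, Trpm1, the cold sensor Trpm8, Trpc5 and Trpc6 had levels from 0.754 to 0.977. The 2 genes that matched by name only were Trpc4ap, at 15.3 and 14.1 (-0.12), and Scnm1, at 2.90 and 2.59 (-0.17).

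Genes that work with these channels were counted beside them. Of 21 measured genes for calcium pumps, stores, store-operated entry and buffers, 18 were lower and 3 higher (median -0.13), and none reached 1.5-fold. Of all probes 53.1% were lower, and 64.8% of probes above the limit. Among the 21 genes 11 were above it, 9 of them lower. Orai2 (-0.41) and Orai1 (-0.38), pore subunits of store-operated calcium entry, differed most among those above the limit. Of 18 measured anchors and modulators, 13 were lower and 5 higher (median -0.14), and of the 11 above the limit 9 were lower. At least 1.5-fold lower were 2, beside 0.497% of all probes and 1.29% of probes above the limit. These were Rimbp2 (-0.68), which links presynaptic calcium channels to the release site, and Cabp1 (-0.60), a calcium-binding modulator of calcium channels. Pex5l, the auxiliary subunit of HCN channels, stood at 3.85 and 4.30 (0.16). Of 14 other cation channel genes 7 were lower and 7 higher, with a median of 0.00, and among those above the limit Asic4 (0.14) and Tpcn1 (-0.13) differed most. By the same count 18 of 23 calcium channel subunits were lower (median -0.11). On the 75th percentile scale 14 of 23 were, beside 32.7% to 33.5% of all probes.

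Cell type markers give the tissue context of these levels. For comparison with the counts below, 53.1% of all probes were lower at 24 h and 46.9% higher. Of probes above the limit 64.8% were lower and 35.2% higher. Above the limit were 13 of the 14 neuron markers, 11 of them lower, and 8 of the 9 oligodendrocyte markers, 7 of them lower. Neuron markers were measured for 14 genes, 12 of them lower at 24 h (median -0.15), with a summed level of 622 at 8 h and 566 at 24 h, Syt1 at 149 and 133 and Rbfox3 at 1.24 and 1.16. The part of neuronal RNA content in the lower calcium channel levels was not tested. Oligodendrocyte markers were lower in 7 of 9 genes (median -0.39, summed level 430 and 331). Astrocyte markers were lower in 4 of 7 (median -0.02, summed level 522 and 621). The reactive astrocyte filament gene Gfap carried that sum, which was 398 and 380 without it. Endothelial markers were higher in 5 of 5 (median 0.03, 39.7 and 42.5), 3 of them dim. Smooth muscle and pericyte markers were higher in 3 of 4 (median 0.13, 7.12 and 10.3), with 2 of the 4 dim. Choroid plexus markers were higher in 6 of 7 (median 0.29, 10.8 and 37.6), with 6 of the 7 dim. Without Vwf the endothelial sum was 34.4 and 35.3. Without Tagln the smooth muscle and pericyte sum was 4.24 and 3.94, and without Ttr the choroid plexus sum was 5.70 and 7.52. Skeletal muscle markers were lower in 4 of 6 (median -0.07, 13.2 and 11.2), and the muscle-defining Ckm stood at 0.776 and 0.749. Acta1, the only 1 of these markers above the limit, stood at 8.66 and 6.66. Without it the skeletal muscle sum was 4.57 and 4.51.

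**Figure D4:**
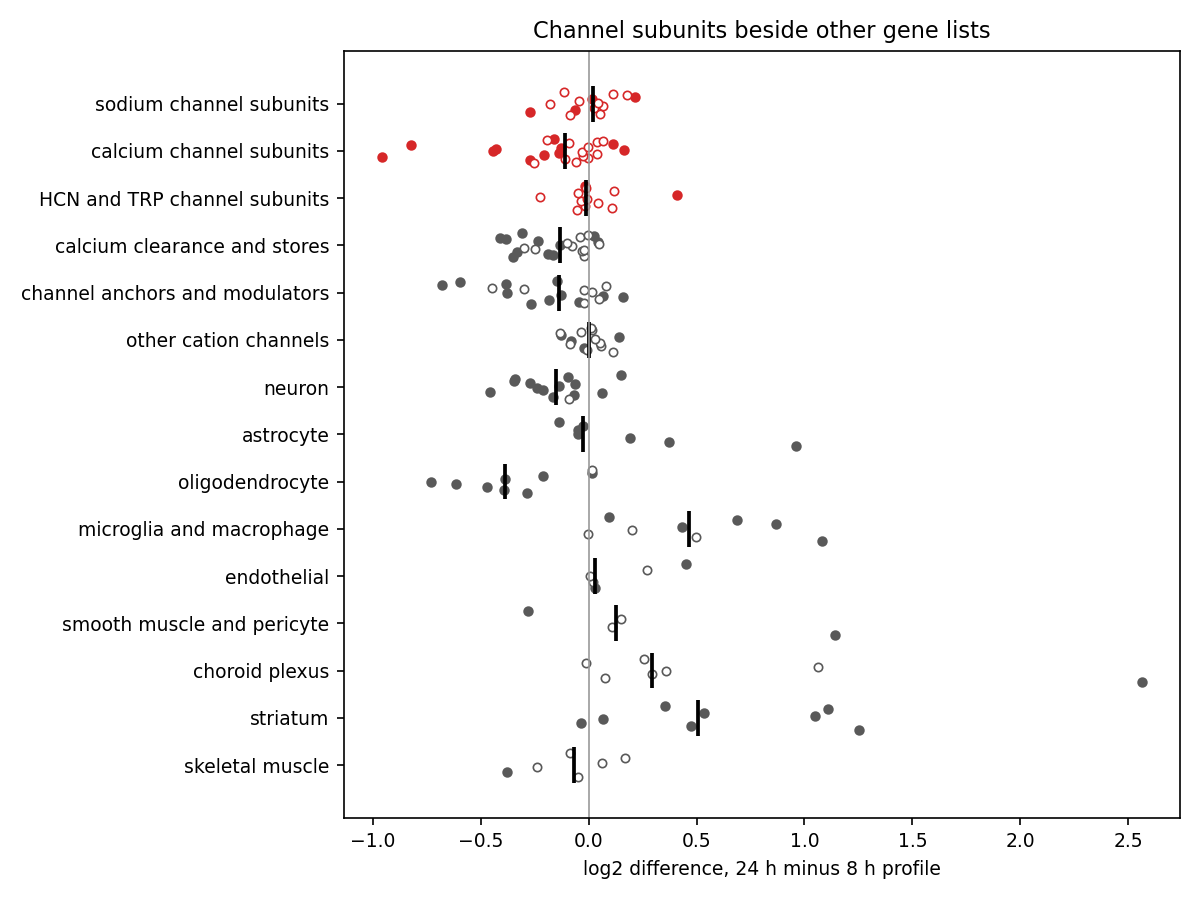
Log2 difference (24 h minus 8 h profile) of each gene of the channel families (red) and of the comparison and cell type lists (grey), with filled points for genes at 1.5 times the array median or more in both profiles, open points for the others, and black bars at the median. Calcium channel subunits have a median of -0.11, sodium channel subunits of 0.02 and neuron markers of -0.15, while microglia and macrophage markers and striatum markers lie to the right.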

How the data were processed

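RNA from cortex was hybridised to 24 arrays on 2 slides, each holding 2 arrays per group. The authors deposited linear intensities for 22523 probes, 1 column per array. Their background correction and normalization are not stated in the labels or files. Another table has 24 columns of non-normalized values whose running numbers match no sample, and it was not used. Groups came from the sample titles. Gene symbols came from the platform annotation: 1 symbol for 13793 probes, none for 8730 and several for 0. All 51 members matched the RefSeq gene table (GRCr8), and 0 symbols changed.

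Each column was divided by its median and log2 values were averaged over the 12 columns of a time point (Python 3.11.15, pandas 2.3.3, numpy 2.4.6). The planned limma models could not be fitted, since arrays of a time point differed by the array factor alone. A gene with several probes in a comparison list was represented by the brighter one. Log2 differences were printed for members at 1.5 times the array median or more in both profiles, and examples of a comparison list were the 2 such genes with the largest absolute difference. Cyclic loess used limma 3.58.1 in R 4.3.3. The profile step was run on simulated columns, each 1 profile without noise times 1 array factor. Recovery was fixed by that build, so the run checks the code alone. Alternatives were other scalings, background subtraction, a filter on dim probes and leaving out replicates. The members and lists were chosen with earlier results of these data known. Pex5l and the markers named beside a summed level were picked after their values were seen.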

Additional observations from a re-analysis of the deposited data

Results flagged for a closer look

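The intensity of 1 treatment array at 24 h stood away from the other 3. Replicate 2 had an array median of 101, and the others ran from 86.7 to 88.6. The gap to its neighbour was 0.866 of the range of the group, for the array median and equally for the summed intensity of the 51 members, which share the array factor. Chance gives such a gap in about 1 of 20 groups, and 6 groups were examined. The levels of the members, being divided by the array median, were the same with and without this array.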

How the results depend on the processing

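Cacna1g and Cacng2 stayed at least 1.5-fold lower at 24 h under all 4 other scalings, with differences of -1.11 to -0.86 and -0.85 to -0.75, and 17 of the 19 members above the limit kept their sign under all 4; Scn2a and Trpv6 did not. The medians of sodium, calcium, HCN and TRP channel probes were 0.073, -0.054, 0.081 and 0.040 on the 75th percentile scale. By quantile normalization they were 0.024, -0.095, 0.018 and -0.019, and by cyclic loess 0.031, -0.075, 0.018 and -0.017. Subtracting the 1st percentile (floor 0.1) gave 0.00, -0.210, -0.135 and -0.017. Without probes below the array median they were -0.065, -0.160 and 0.050 for sodium, calcium and TRP probes, with no HCN probe left. Of the 30 members left, 24 were lower and 6 higher, beside 34 and 17 of all 51. On the 75th percentile scale 22 members were lower and 29 higher, beside 32.7% to 33.5% of all probes lower. With the 1st percentile subtracted, 4 members were at least 1.5-fold lower and 1 higher, the added ones being the dim Cacna1a, Trpv1 and Scnn1a, and over all probes 781 were higher and 754 lower. The cause of these shifts was not tested. Leaving out replicate 1, 2, 3 or 4 could not change a level, since the columns of a time point are 1 profile, and counting 1 probe a gene could not change the members, which have 1 probe each; neither is a check of stability. Over all genes 1 probe a gene gave 121 higher and 91 lower. No paired analysis was possible because the columns of a time point are 1 profile, so no test was fitted; the sham, vehicle and treatment columns were not run apart for the same reason. Depth does not apply to arrays, and nearness to background limits the 32 dim members.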
